A study of Homo sapiens with 18 samples.

Results

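Long intergenic and antisense RNAs were described in spheroidal aggregates of 2 brain tumor cell lines held in an electric field. The transcripts were chosen by the type in the deposited table (lincRNA or antisense) and by a mean of at least 5 estimated counts over all 18 samples, leaving out NEAT1, MALAT1, MIR22HG, GAS5, ZFAS1 and the SNHG genes by name. This gave 2114 of 145326 transcripts, with 1057 of each type, in 1599 genes. The level itself therefore chose them, and the last transcripts taken in had means of 5 counts, while those just left out had means of 4.9999 to 4.9946. By name, 85 transcripts that met type and level were left out.

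The U87mg line comes from a human glioblastoma and the DAOY line from a desmoplastic cerebellar medulloblastoma, and both are long in use. Aggregates of each line rested for 24 h in a Matrigel-filled channel and were then lysed as controls (0 h) or after 2 h or 8 h in a direct current field (dcEF) of 250 V/m, with 3 samples for each of the 6 conditions and 3 channels pooled into each sample. RNA was poly-A selected, so RNAs without a poly-A tail are under-represented. Field and time in the channel changed together and cannot be told apart, and each tumor type is represented by 1 line only. The samples are numbered 0 to 2 within a condition. Estimated counts summed to between 8341976 and 15610886 per sample. Of 12 glioblastoma or astroglial marker genes, 6 exceeded 1 TPM (transcripts scaled to a fixed total per sample) in every U87mg sample and 6 in every DAOY sample, and of 12 medulloblastoma or granule neuron precursor markers 5 and 6 did. In the direction of the labels, the glial markers NES (5.58 to 9.25 against 0.171 to 0.715 TPM) and CHI3L1 (76.3 to 156 against 2.35 to 15.3 TPM) were higher in U87mg, and the medulloblastoma markers SFRP1 (at most 0.109 against 19 to 28.2 TPM) and OTX2 (0 against 1.15 to 2.44 TPM) were higher in DAOY, without overlap. Other markers went against the labels, also without overlap. The glial markers SOX2 (at most 0.0858 against 2.93 to 6.92 TPM) and AQP4 (0 against 0.106 to 1.32 TPM) were higher in DAOY. The medulloblastoma markers GLI1 (1.51 to 7.19 against at most 0.932 TPM) and GLI2 (2.2 to 5.03 against 0.817 to 1.81 TPM) were higher in U87mg. Of the defining markers, S100B and AQP4 were under 1 TPM in all U87mg samples and ATOH1 was at 0 in all samples of both lines. In such bulk samples, a lower level from fewer cells that make an RNA and one from less RNA per cell cannot be told apart.

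Long noncoding RNAs are transcribed and spliced like messenger RNAs but encode no known protein of size. Intergenic ones lie between genes and antisense ones run opposite to a coding gene, often from the same promoter, in which case both RNAs are called a divergent pair. Some, such as NORAD and LINC-PINT, act in the DNA damage and p53 responses, others are precursors of microRNAs, and many divergent transcripts are short-lived nuclear RNAs. Many were known by clone names only, and such names are kept here with the present symbol where there is one.

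The sequences around the start of 4 of the 7 RNAs that changed in both lines after 8 h are given first, since the start of the one that rose differs in base composition from those that fell. They are the 4 whose start in RefSeq (GRCh38.p14) lay within 500 bases of the measured transcript's start. Each runs 5′ to 3′ from 250 bases before the start, and the 50 transcribed bases are in capitals.
AC004812.2 (RAB35-AS1, chr12:120116657-120116956, plus strand): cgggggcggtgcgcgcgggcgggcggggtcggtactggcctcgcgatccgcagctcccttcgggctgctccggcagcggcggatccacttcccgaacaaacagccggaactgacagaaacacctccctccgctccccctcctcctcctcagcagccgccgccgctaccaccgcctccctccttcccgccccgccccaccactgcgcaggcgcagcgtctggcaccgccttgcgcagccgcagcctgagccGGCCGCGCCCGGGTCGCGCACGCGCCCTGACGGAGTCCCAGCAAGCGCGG
AC091729.3 (ZFAND2A-DT, chr7:1160124-1160423, plus strand): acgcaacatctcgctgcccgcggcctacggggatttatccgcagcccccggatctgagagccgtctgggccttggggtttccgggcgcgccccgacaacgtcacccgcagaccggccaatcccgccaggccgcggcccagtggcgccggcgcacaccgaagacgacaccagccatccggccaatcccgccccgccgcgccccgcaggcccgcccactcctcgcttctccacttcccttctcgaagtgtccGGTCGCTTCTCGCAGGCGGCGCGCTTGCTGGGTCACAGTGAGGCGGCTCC
AP001372.2 (LIPT2-AS1, chr11:74493130-74493429, plus strand): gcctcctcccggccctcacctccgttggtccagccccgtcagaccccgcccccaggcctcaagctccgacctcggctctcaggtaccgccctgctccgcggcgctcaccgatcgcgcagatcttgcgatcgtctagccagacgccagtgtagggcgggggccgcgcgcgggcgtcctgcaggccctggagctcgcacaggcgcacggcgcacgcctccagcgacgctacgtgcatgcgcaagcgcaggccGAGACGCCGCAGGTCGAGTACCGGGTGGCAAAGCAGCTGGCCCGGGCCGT
PSMD6-AS2 (chr3:64003772-64004071, plus strand): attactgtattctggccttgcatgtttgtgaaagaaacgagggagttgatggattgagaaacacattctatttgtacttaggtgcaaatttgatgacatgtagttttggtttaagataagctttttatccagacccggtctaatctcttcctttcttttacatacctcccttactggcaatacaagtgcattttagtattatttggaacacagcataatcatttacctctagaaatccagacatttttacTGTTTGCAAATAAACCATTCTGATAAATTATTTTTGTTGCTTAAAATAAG
The first 3, which fell, hold 41, 39 and 39 CpG dinucleotides in 300 bases, while PSMD6-AS2, which rose, holds 2. Their GC content is 75.3%, 71.7% and 73.0% against 33.0%, and the median over 27305 RefSeq promoters of the same length is 58.3% with 14 CpG. The first 3 are divergent and PSMD6-AS2 is not, and divergent RNAs as a class had a median of 67.7% with 29 CpG. Direction of change and position cannot be told apart in these sequences.

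As a class, the RNAs were weakly expressed and made of few exons. The median transcript had a mean of 12.81 counts, 1389 of the 2114 were under 20 and 144 reached 100, while 32250 protein-coding transcripts past the same minimum had a median of 49.89 counts. The lincRNAs had a median of 3 exons and 1591 bases, the antisense RNAs 2 exons and 1364 bases, and the coding transcripts 8 exons and 2404 bases. A single exon made up 22.5% of the lincRNAs and 18.3% of the antisense RNAs but 1.2% of the coding transcripts. Together they took up between 0.727% and 0.877% of the counts of a sample.

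In U87mg, this share was 0.877%, 0.848% and 0.870% at 0 h, 0.844%, 0.835% and 0.834% at 2 h and 0.785%, 0.778% and 0.778% at 8 h. The 3 groups did not overlap in counts, and the mean at 8 h was 0.085 percentage points below that at 0 h (0.780 ± 0.004 against 0.865 ± 0.015, SD, n = 3). An exact two-sided permutation test of 3 against 3 samples gave p = 0.10, the smallest p this design allows. As a share of TPM, the 2 h samples (1.385% to 1.4%) lay within the 0 h range (1.374% to 1.468%) and the 8 h samples (1.318% to 1.335%) below it. NORAD, a cytoplasmic RNA that binds Pumilio proteins, is the most counted of these RNAs, and without it the U87mg samples still ranged from 0.786% to 0.808% at 0 h and from 0.733% to 0.741% at 8 h. In DAOY the share ranged from 0.788% to 0.838% at 0 h, from 0.727% to 0.823% at 2 h and from 0.769% to 0.812% at 8 h, and these ranges overlapped (exact permutation p = 0.50 at 8 h).

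Position divided the genes into 3 classes. Of 1588 genes with an annotation in GENCODE 29, 397 (25.0%) began within 1000 bases of the start of a coding gene on the opposite strand and are called divergent here, 441 others (27.8%) overlapped a coding exon on either strand and 750 did neither. Coding exons on the opposite strand were overlapped by 614 genes, 207 of them over more than 50% of their exon bases. Whether reads were assigned by strand is not stated in the sources used here, so for these the reads of both strands may not be separated.

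That limit applied to 5 of the 10 RNAs highest in U87mg and 3 of the 10 highest in DAOY by TPM, a scale that corrects for length. At 0 h in U87mg the highest were AC011603.2 (TUBA1B-AS1) at a mean of 1555 TPM, AC006064.4 at 1011, LRRC75A-AS1 (now SNHG29) at 903.8, AC003092.1 at 393.6, AL136131.3 at 225.1, NORAD at 194.1, AC145207.3 at 158.3, LINC00973 at 158.0, SMIM30 at 146.0 and FOXD1-AS1 at 136.1. AC011603.2 lies over 86.35% of its exon bases opposite TUBA1B exons, AC006064.4 wholly opposite GAPDH, AL136131.3 opposite VEGFA, AC145207.3 opposite P4HB and FOXD1-AS1 opposite FOXD1. FOXD1 had a mean of 25.08 CPM (counts scaled to library size by TMM) in U87mg at 0 h, about that of FOXD1-AS1, while GAPDH, the glycolytic enzyme, had a mean of 4075 CPM and AC006064.4 had 113, 165 and 283 CPM in the same samples. In DAOY the highest were again AC011603.2 at 851.9, LRRC75A-AS1 at 606.4 and AC006064.4 at 357.0 TPM, followed by LINC01287 at 317.7, SMIM30 at 184.8, CHMP1B-AS1 (wholly opposite CHMP1B exons) at 182.3, TUG1 at 155.0, NORAD at 140.4, and the near-identical copies FP671120.3 and FP236383.3, which share the same counts, at 134.8 TPM. SMIM30 is now annotated as coding a small protein. The name LRRC75A-AS1 kept an SNHG gene among the RNAs, and SNHG26, deposited under another name, is among them too. In all, 15 transcripts, these copies among them, had values identical to another of the RNAs and are uncertain for that reason.

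Before the field, both lines differed widely in their long noncoding RNAs. Of 1482 tested, 686 passed the test (edgeR's quasi-likelihood test, false discovery rate (FDR) under 0.05 and at least a 2-fold difference), 328 higher and 358 lower in DAOY. That is 46.3%, and of all 16664 genes tested 41.1% passed. An RNA of 1 line alone could enter the choice by its level there, so this count is a description. The largest differences separated the lines nearly completely, as the plot of both lines at 0 h shows.

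**Figure D1:**
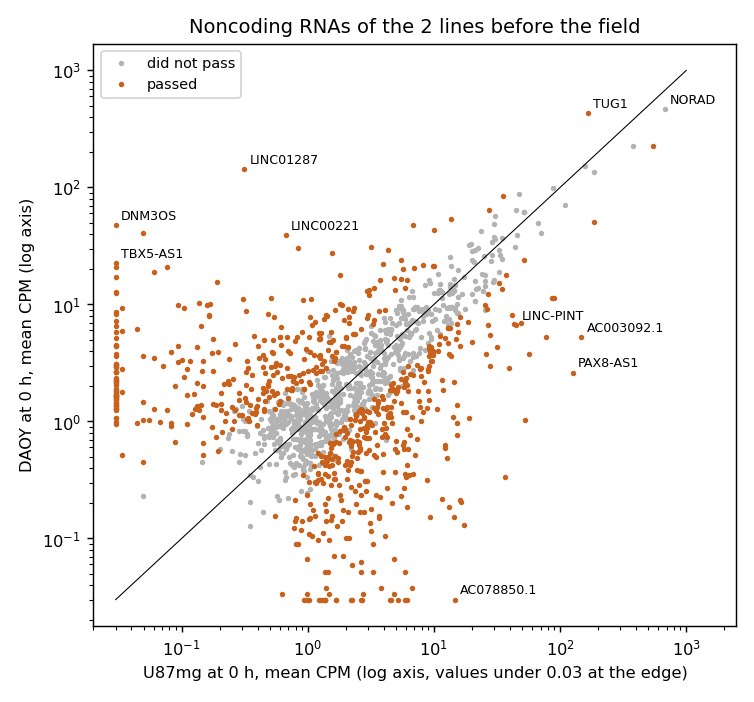
Mean level at 0 h (CPM, log axes, n = 3) of each long noncoding RNA gene tested, U87mg on the x axis and DAOY on the y axis, with genes that passed the test in orange and means under 0.03 CPM set at the edge. The RNAs at the left edge, such as TBX5-AS1, and at the bottom edge, such as AC078850.1, were found in 1 line, and NORAD lies near the diagonal.

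In DAOY, TBX5-AS1, which begins 312 bases from the cardiac transcription factor gene TBX5, stood at 19.5, 26.8 and 21.2 CPM at 0 h and at 0 in all U87mg samples, at least 90.4-fold higher against a floor of 3 counts per library. TBX5 itself had a mean of 12.79 ± 1.572 CPM (SD, n = 3) in DAOY at 0 h and was at 0 in all U87mg samples. LINC01667 (18.5, 23.7 and 20.2 CPM) was at least 83.6-fold, AL136537.2 (LINC02616) at least 51.6-fold and AC015922.3 at least 50.3-fold higher in DAOY, each with 0 counts in the U87mg controls. DNM3OS, the precursor of miR-199a and miR-214, had 52.5, 46.6 and 43.5 CPM in DAOY and 1 count in all U87mg controls together, a ratio of 1759 with a 95% counting interval of 315 to 69538. AC083967.1 was at least 34.8-fold and ADGRD1-AS1 at least 33.0-fold higher in DAOY, while AC079062.1 (LINC02864) had 2 counts in all U87mg controls and a ratio of 750 (207 to 6201). LINC00221 was higher by 5.85 on the log2 scale (FDR 1.67e-11). LINC01287 reached 119.7 to 159.9 CPM in DAOY and 0.25 to 0.40 CPM in U87mg (log2 difference 8.77 ± 0.26 SE, FDR 1.57e-13).

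In U87mg, AC078850.1 stood at 19.6, 9.60 and 14.6 CPM and at 0 in the DAOY controls, at least 50.3-fold higher in U87mg. LINC01326 was at least 21.2-fold and AC106791.1 (PKD2L2-DT) at least 15.6-fold higher. AC131254.1 was at least 15.4-fold, AC010091 at least 9.2-fold, AP001596.1 at least 9.1-fold, AL049775.1 (FLRT2-AS1) at least 7.7-fold and AC108517.1 at least 7.5-fold higher in U87mg. PAX8-AS1, antisense to the transcription factor gene PAX8, had 145, 117 and 116 CPM in U87mg against 3.61, 1.39 and 2.82 CPM in DAOY (log2 difference of DAOY from U87mg −5.62 ± 0.30 SE, FDR 1.04e-10), and PAX8 was lower in DAOY too (−3.67, FDR 1.24e-07). ITGB1-DT, named for the integrin gene ITGB1, had 18.8, 14.3 and 16.1 CPM in U87mg and under 0.34 CPM in each DAOY control. Its level was thus far apart between the lines, while ITGB1 differed by −1.62 (FDR 5.72e-07).

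Lists of known RNAs were counted in this comparison, by their members tested, and of all genes 23.3% were higher and 17.8% lower in DAOY. Of 19 p53, stress and hypoxia related RNAs, 1 was higher and 11 were lower in DAOY, with a median log2 difference of −1.74 beside 0.05 over all genes tested. PURPL, a p53-induced RNA, had 12.9, 18.1 and 12.1 CPM in U87mg and 0.23, 0.23 and 0 in DAOY. MIR34AHG, host of the p53 target miR-34a, had 12.2, 17.9 and 18.3 CPM in U87mg against 0.34, 0 and 0.30 CPM. LUCAT1, a stress-induced RNA, was lower in DAOY by 3.82 on the log2 scale (FDR 2.43e-05), and TUG1, the one that was higher, had 151 to 183 CPM in U87mg and 371 to 544 CPM in DAOY. Of 20 RNAs antisense to developmental transcription factor genes, 10 were higher and 2, PAX8-AS1 and HOXB-AS1, lower in DAOY. SOX21-AS1 and GATA2-AS1 were at 0 in all U87mg samples and HOTAIR, of the HOXC cluster, had at most 0.50 CPM in any U87mg sample and 2.93, 3.24 and 2.21 CPM in the DAOY controls. Of 14 listed microRNA host genes 4 were higher and 7 lower, of 41 cancer-associated RNAs 8 and 9, and of 16 RNAs beside growth factor, ERK and adhesion genes 3 and 3. The list of host genes does not hold the microRNA precursors DNM3OS and AC020916.1 (MIR23AHG). Among the host genes, MIR99AHG, which hosts miR-99a, was lower in DAOY by 5.79 on the log2 scale, and MIR17HG, host of an oncogenic microRNA cluster, by 1.74. Among the cancer-associated RNAs, CASC15 was higher by 3.13 and DANCR lower by 2.65.

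After 2 h in the field, 0 of 1147 RNAs tested in U87mg and 0 of 1170 in DAOY passed the test (edgeR), as did 0.0% of all 14232 and 15487 genes. At an unadjusted p under 0.05 there were 62 in U87mg (5.41%, beside 8.68% of all genes) and 23 in DAOY (1.97%, beside 2.62%). DESeq2 called 0 in both lines. Without the abundance filter 14 and 12 RNAs passed, beside 76 and 98 of all genes. In U87mg 8 passed without replicate 0 of the controls, beside 68 of all genes.

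The U87mg RNAs with the smallest p at 2 h are given as values. AC015712.2 (ALDH1A3-AS1, chr15:100892859-100919283, starting 68 bases from LRRK1) had 10.6, 11.7 and 14.4 CPM at 0 h and 5.20, 4.44 and 6.67 CPM at 2 h (log2 −1.17 ± 0.23 SE, FDR 0.499 by edgeR). These groups did not overlap. MEG3, an imprinted RNA with tumor suppressor activity, had 20.3, 23.6 and 28.5 CPM at 0 h and 13.9, 17.5 and 14.2 CPM at 2 h (−0.66 ± 0.18, FDR 0.499). DDIT4-AS1, wholly opposite exons of the stress gene DDIT4, had 38.0, 6.81 and 38.5 CPM at 0 h and 8.24, 3.41 and 3.40 CPM at 2 h (−2.42 ± 0.68), with DDIT4 at −1.59 (FDR 0.499). Its control replicate 1 lay below the 2 h replicate 0, so the groups overlapped. TOPORS-AS1 (now SMIM27, −1.08) and AC096772 (0.79) completed the 5, and in DAOY the 5 were AC021218.1, AP000942.2, LINC00847, AC093110.1 and AC083798.2, all with an FDR of 1. LINC00847 had 8.01, 9.33 and 9.16 CPM at 0 h and 4.83, 4.78 and 3.59 CPM at 2 h in DAOY.

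After 8 h, the changes in U87mg were mostly decreases. Of 1147 RNAs tested 11 passed, 1 higher and 10 lower. Of all 14232 genes, 0.611% passed, 0.162% higher and 0.45% lower, and the RNAs stood at 0.959%, 0.0872% and 0.872%. Of the 11, 8 lower ones and the higher one were antisense. The median log2 change of the tested RNAs was −0.11 and that of all genes −0.001. The count fell to 0 when only the 6 samples compared were fitted, and also without replicate 2 of the controls or replicate 2 of the 8 h samples, and it fell to 1 without replicate 1 of the controls.

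In DAOY, 51 of 1170 RNAs passed at 8 h, 20 higher and 31 lower. Of all 15487 genes 3.04% passed, 1.19% higher and 1.85% lower, and the RNAs stood at 4.36%, 1.71% and 2.65%. The lincRNAs were balanced, with 13 higher and 13 lower, while 7 antisense RNAs rose and 18 fell. The count was 0 without replicate 1 of the 8 h samples and 2 without replicate 2 of them, and between 27 and 40 when any other sample of the comparison was left out. Of all genes, 31 and 65 passed without these replicates 1 and 2, and between 296 and 393 without another sample. With only the 6 samples compared 15 RNAs passed, beside 179 of all genes.

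Between transcripts instead of genes, 0 of 1463 RNAs tested in U87mg and 0 of 1404 in DAOY passed in any comparison by edgeR, as 0.0% of all transcripts did. At an unadjusted p under 0.05 there were 82 and 150 at 8 h, beside 6.3% and 10.3% of all transcripts. DESeq2 called 13 and 59 transcripts of the RNAs at 8 h, beside 342 and 1225 of all transcripts.

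A set of 7 RNAs passed at 8 h in both lines, whose samples are separate, and each moved in the same direction in both. They were 6 of the 10 that fell in U87mg (60.0%) and of the 31 that fell in DAOY (19.4%), and the 1 that rose in U87mg, among 20 in DAOY (5.0%). Of all genes, 87 passed in U87mg and 471 in DAOY. The overlap among all genes is not given here, so the sharing is not shown to be particular to these RNAs.

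PSMD6-AS2 (chr3:64004022-64012148) is antisense in the region of the proteasome subunit gene PSMD6. It is among the RNAs that overlap a coding exon, and whether its reads are separated from those of a coding gene was not tested. It had 0.60, 0.82 and 0.86 CPM at 0 h, 1.28, 1.45 and 1.01 CPM at 2 h and 2.81, 4.10 and 5.99 CPM at 8 h in U87mg. In DAOY it had 0.45, 0.39 and 0.20 CPM at 0 h, 1.02, 0.57 and 0.78 CPM at 2 h and 1.06, 3.98 and 1.39 CPM at 8 h. In both lines each sample at 2 h and 8 h lay above each control. The log2 change at 8 h was 2.49 ± 0.38 (SE, FDR 0.0173) in U87mg and 2.59 ± 0.62 (FDR 0.0375) in DAOY, while PSMD6 had 0.19 (FDR 0.504) and −0.21 (FDR 0.553).

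DHRS4-AS1 (chr14:23938731-23988839), which begins 611 bases from the dehydrogenase gene DHRS4 on the other strand, fell in both lines. In U87mg it had 7.34, 5.01 and 6.75 CPM at 0 h and 3.31, 2.79 and 1.90 CPM at 8 h, and in DAOY 10.6, 13.3 and 11.2 CPM at 0 h and 4.15, 4.75 and 4.38 CPM at 8 h. All 8 h samples lay below all controls. The log2 change was −1.20 ± 0.25 (FDR 0.0417) and −1.38 ± 0.22 (FDR 0.0131). At 2 h it had 7.07, 7.54 and 8.05 CPM in U87mg, and this range overlapped that of the controls. DHRS4 had 0.01 (FDR 0.993) and −0.35 (FDR 0.583).

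AC091729.3 (ZFAND2A-DT, chr7:1160374-1165267) starts 385 bases from ZFAND2A, a gene for a stress-induced zinc finger protein. It had 2.11, 2.71 and 2.31 CPM at 0 h and 0.86, 0.61 and 0.40 CPM at 8 h in U87mg, and 1.80, 3.78 and 3.12 CPM at 0 h and 0.18, 0.55 and 0.60 CPM at 8 h in DAOY. No 8 h sample reached a control. The log2 change was −1.85 ± 0.38 (FDR 0.0375) and −2.70 ± 0.48 (FDR 0.0159), beside 0.27 and −0.47 for ZFAND2A (FDR 0.604 and 0.298).

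AL365181.3 (chr1:156641666-156644887), a single-exon antisense RNA 3497 bases from the start of BCAN, was the best counted of them. It had 16, 11.98 and 15.1 CPM at 0 h, 15.0, 10.3 and 9.69 CPM at 2 h and 5.47, 4.18 and 3.19 CPM at 8 h in U87mg. In DAOY it had 13.9, 15.9 and 19.8 CPM at 0 h, 13.9, 13.7 and 13.8 CPM at 2 h and 7.50, 3.98 and 6.17 CPM at 8 h. The fall was thus 3.232-fold in U87mg and 2.755-fold in DAOY (FDR 0.0165 and 0.0157), and the groups at 0 h and 8 h did not overlap.

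The other 3 RNAs that fell in both lines were divergent. AC073508.3 (chr17:40648300-40649718), beside the chromatin remodeling gene SMARCE1, had 1.31, 1.89 and 1.39 CPM at 0 h and 0, 0.35 and 0 at 8 h in U87mg, and a mean of 3.28 ± 0.951 CPM against 0.740 ± 0.236 CPM (SD, n = 3) in DAOY. SMARCE1 had 0.00 in U87mg and −0.43 in DAOY (FDR 0.0841). Over 82.4% of its exon bases AC073508.3 lies opposite exons of AC073508.2, which had means of 0.838 CPM at 0 h and 1.11 CPM at 8 h in U87mg and 0 in DAOY. AC004812.2 (RAB35-AS1), beside the endosomal GTPase gene RAB35, changed by −2.24 ± 0.48 (FDR 0.0424) in U87mg and −1.44 ± 0.31 (FDR 0.0276) in DAOY. AP001372.2 (LIPT2-AS1), beside a lipoate transferase gene, changed by −1.40 ± 0.31 (FDR 0.0443) and −1.50 ± 0.27 (FDR 0.0169). The single calls of the 7 RNAs depended on the samples used. With 1 sample left out at a time, they passed in U87mg in 0 (AP001372.2) to 4 (AL365181.3) of 6 fits. In DAOY they passed in 1 (AC004812.2 and PSMD6-AS2) to 4 of 6 fits.

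**Figure D2:**
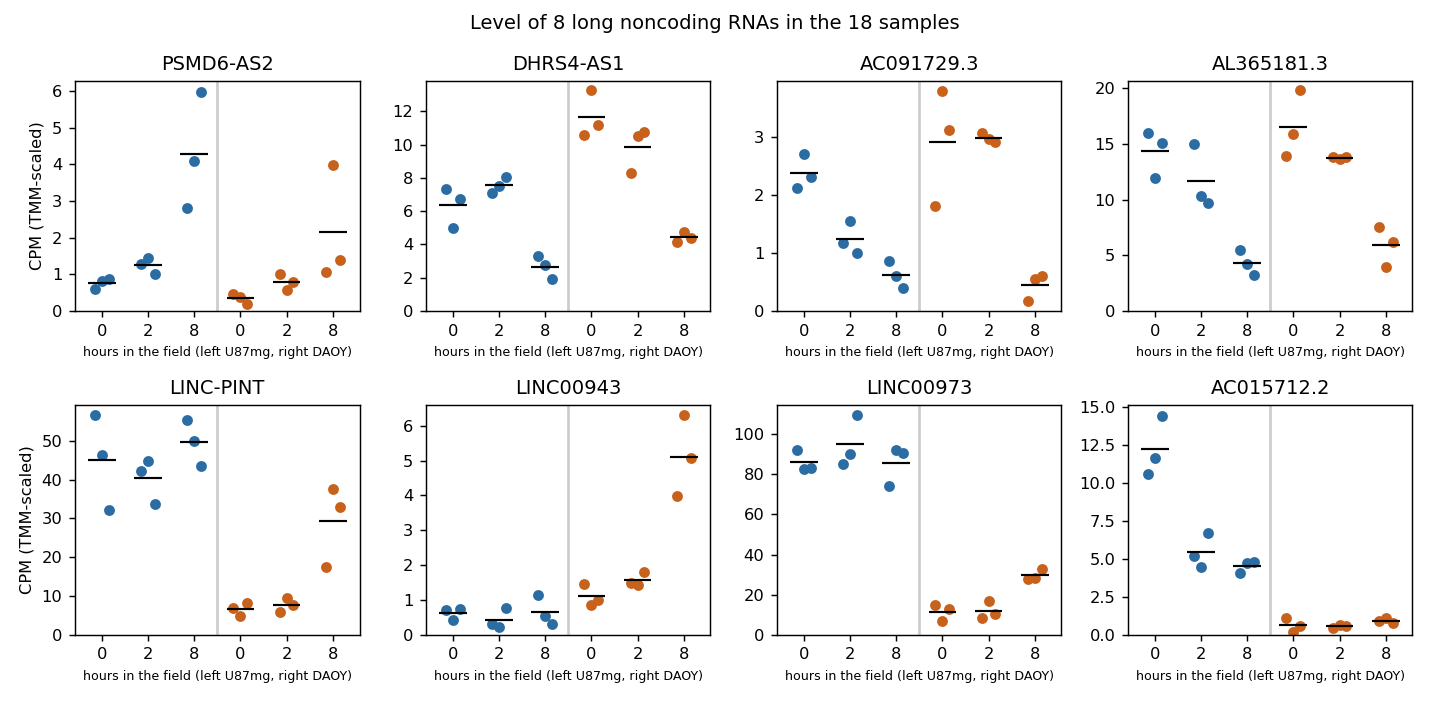
Level (CPM scaled by TMM, linear axes from 0) of 8 RNAs in each sample at 0, 2 and 8 h, U87mg in blue on the left and DAOY in orange on the right of each panel, with a bar at the mean of 3. PSMD6-AS2 rose and DHRS4-AS1, AC091729.3 and AL365181.3 fell in both lines, LINC-PINT, LINC00943 and LINC00973 rose in DAOY, and AC015712.2 fell in U87mg.

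Looked at the other way, the RNAs that passed in DAOY were read in U87mg. Of the 31 that fell in DAOY, 26 were tested in U87mg, all 26 had a negative change there with a median of −0.95, and 17 had an unadjusted p under 0.05. Among all 1147 RNAs tested in U87mg, 58.9% had a negative change and 10.5% a negative change with such a p. Of the 20 that rose in DAOY, 12 were tested in U87mg, 11 had a positive change with a median of 0.53 and 5 had such a p, beside 4.8% of all RNAs. The exception was CU633906.2, with −0.58, which is itself counted at 5 counts in all DAOY controls together.

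**Figure D3:**
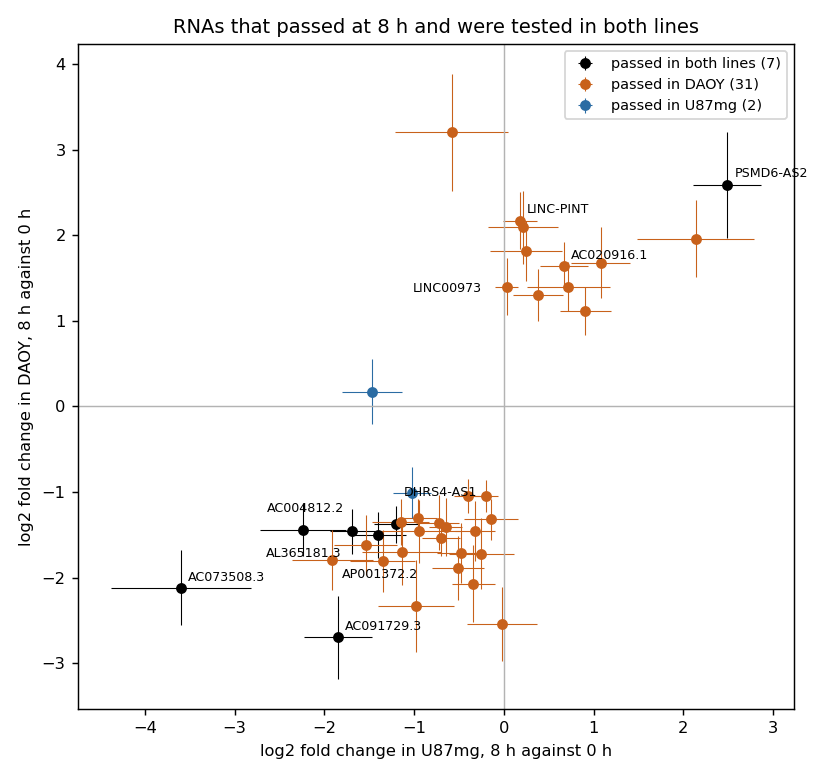
Log2 fold change at 8 h against 0 h in U87mg (x axis) and DAOY (y axis), with SE bars, for the 40 RNAs that passed in either line and were tested in both. The 7 in black passed in both, 31 in orange in DAOY and 2 in blue in U87mg, and the points in the lower left are the RNAs that fell.

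With LINC00943, LINC-PINT (chr7:130938963-131110176) had the smallest FDR of the RNAs that rose in DAOY, and 6 of them rose by more. It is a p53-induced RNA that starts 80 bases from MKLN1 and has been described as a restraint on tumor cell growth and migration. It had 6.995, 4.78 and 8.15 CPM at 0 h, 5.86, 9.56 and 7.62 CPM at 2 h and 17.6, 37.6 and 32.8 CPM at 8 h in DAOY (4.494-fold, log2 2.17 ± 0.33, FDR 0.0109). In U87mg it had 56.8, 46.4 and 32.2 CPM at 0 h and 55.4, 49.9 and 43.6 CPM at 8 h (0.18 ± 0.19, FDR 0.741). At 0 h the level in DAOY was 6.768-fold below that in U87mg (FDR 4.02e-07), and at 8 h the DAOY samples at 37.6 and 32.8 CPM lay within the range of the U87mg controls. The difference between the 8 h changes of both lines was 2.00 ± 0.39 on the log2 scale with an FDR of 0.0998, which misses the threshold, and MKLN1 had 0.52 in DAOY (FDR 0.128).

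LINC00943 (chr12:126726270-126746252), an intergenic RNA of unclear function, rose from 1.47, 0.85 and 1.01 CPM to 3.97, 6.30 and 5.08 CPM in DAOY (2.24 ± 0.34, FDR 0.0109). It was too low in U87mg to be tested there. LINC00973 (chr3:98981058-98983096) had 14.8, 6.63 and 13.0 CPM at 0 h and 27.8, 28.2 and 32.8 CPM at 8 h in DAOY (1.40 ± 0.33, FDR 0.0346), beside 92.2, 82.8 and 83.0 CPM at 0 h and 74.2, 92.2 and 90.4 CPM at 8 h in U87mg. LINC00973 was lower in DAOY than in U87mg before the field (−2.91 ± 0.27, FDR 6.26e-08), as LINC-PINT was. The other named ones were AC114284.1 (2.49 ± 0.44), AC009055.2 (2.31 ± 0.45) and LINC01176 (2.13 ± 0.49), all intergenic and each with a control mean under 1 CPM. AC008742.1 and CU633906.2 had 7 and 5 counts in all controls together against 90 and 47 at 8 h. Their ratios were 13.4 (95% interval 6.3 to 34.3) and 9.8 (3.9 to 31.6), and the intervals cover counting error only.

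A further 3 RNAs that rose are named after their values were seen, for what they are known to do. AC020916.1 (MIR23AHG, chr19:13823880-13842928), precursor of miR-23a, miR-24 and miR-27a, rose from 3.50, 4.40 and 3.02 CPM to 9.71, 15.0 and 9.16 CPM in DAOY (1.64 ± 0.28, FDR 0.0139). In U87mg its change was 0.67 ± 0.27 (FDR 0.255). SLC25A25-AS1 rose from 1.69, 2.16 and 2.01 CPM to 5.21, 8.95 and 6.47 CPM (1.82 ± 0.35, FDR 0.0191), while SLC25A25 had 0.21 (FDR 0.746). LINC00472, described as lost in aggressive breast tumors, rose from 1.13, 1.16 and 0.60 CPM to 3.53, 3.65 and 2.29 CPM (1.72 ± 0.41, FDR 0.0393).

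AC016747.1 (C2orf74-DT), divergent from C2orf74, had the smallest FDR of all RNAs at 8 h, with 15.9, 13.6 and 14.4 CPM at 0 h, 11.3, 10.1 and 11.5 CPM at 2 h and 4.59, 4.42 and 5.77 CPM at 8 h (−1.54 ± 0.21, FDR 0.00809). The 3 groups did not overlap. In U87mg it had −0.70 (FDR 0.115). C11orf71, also divergent and now annotated as coding, fell from 5.42, 5.78 and 5.84 CPM to 1.59, 1.77 and 1.00 CPM (−1.94 ± 0.32, FDR 0.0135). ST7-AS1, which overlaps a coding exon and starts 1096 bases from the start of ST7, fell from 2.26, 2.54 and 1.81 CPM to 0.35, 0.22 and 0.40 CPM (−2.69 ± 0.42, FDR 0.0113), and ST7 had 0.16 (FDR 0.615). AL137802.2 (−2.67), LINC01152 (−2.33) and AC107068.1 (−2.07), which lie apart from coding genes, were also among the largest decreases.

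In U87mg, 3 named RNAs fell at 8 h without having passed in DAOY. AC015712.2 (ALDH1A3-AS1) had 4.03, 4.71 and 4.79 CPM at 8 h, below the 10.6 to 14.4 CPM of the controls (−1.41 ± 0.23, FDR 0.0194), and was not tested in DAOY. AL627309.5 went from 3.92, 4.27 and 4.63 CPM to 1.22, 2.27 and 1.00 CPM (−1.47 ± 0.33, FDR 0.047). AC100810.3 went from a mean of 1.63 to 0.379 CPM (−2.07 ± 0.41, FDR 0.0344). The tenth, AC004943.2 (ZFHX3-AS1), named as the only one outside the rule, had −1.02 ± 0.21 (FDR 0.0378).

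Divergent RNAs made up more of those that fell than of those tested, a difference described here by its counts with no test. In DAOY 16 of 31 (51.6%) were divergent, and 304 of 1160 tested RNAs (26.2%) were. In U87mg 6 of 10 were divergent, beside 27.0% of those tested. Of 19 annotated RNAs that rose in DAOY 1 was divergent and 12 lay apart from coding exons. Over all divergent RNAs tested, with no choice by change, the median log2 change at 8 h was −0.23 in U87mg (n = 307) and −0.16 in DAOY (n = 304), while RNAs overlapping a coding exon had −0.05 and 0.13 and those apart from coding genes −0.06 and 0.10. A negative change with an unadjusted p under 0.05 was seen in 17.3% of the divergent RNAs in U87mg and 20.4% in DAOY, beside 7.4% and 7.6% of those apart. At 2 h the medians of the divergent RNAs were −0.08 in both lines, beside −0.05 and −0.09 for those apart. The RNAs that fell in DAOY also had a higher level in the controls (median 5.21 CPM, beside 2.21 over those tested) and more single-exon genes (48.4%, beside 25.9%), whose part in this difference was not tested.

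**Figure D4:**
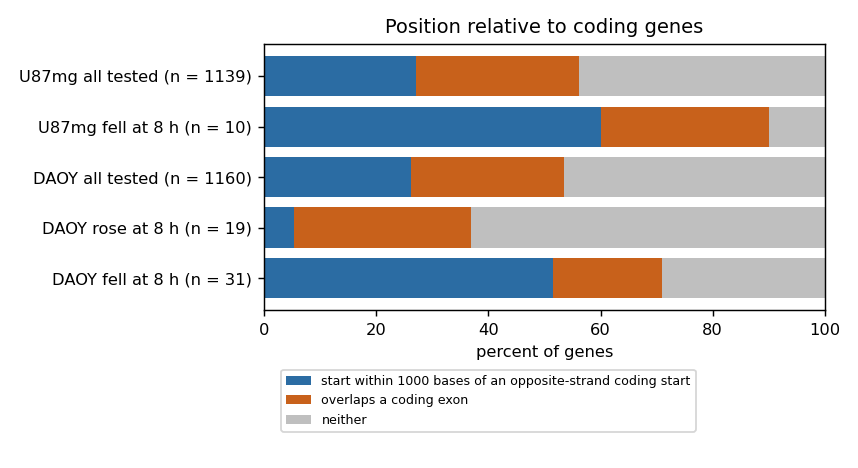
Share (percent, x axis) of genes that start within 1000 bases of an opposite-strand coding start (blue), overlap a coding exon (orange) or do neither (grey), for all RNAs tested and for those that fell or rose at 8 h. The blue share is 26.2% of those tested and 51.6% of those that fell in DAOY, and 27.0% and 60.0% in U87mg.

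Of the coding genes across the shared promoter, few passed the test. In DAOY, 15 falling divergent RNAs had a partner that was tested, 1 of these partners passed in the same direction and 0 in the other, and the median of their log2 changes was 0.00. C2orf74, the partner of AC016747.1, was the one that fell (−1.92, FDR 0.0139). ZEB1, which encodes a repressor of epithelial genes, had 0.11 (FDR 0.836) while ZEB1-AS1 fell from 5.98, 4.32 and 3.62 CPM to 1.32, 0.99 and 2.09 CPM (−1.62 ± 0.35, FDR 0.0276). WAC had 0.64 (FDR 0.0611) while WAC-AS1, named after its values were seen, fell from 32.5, 22.4 and 24.7 CPM to 12.9, 11.4 and 13.4 CPM (−1.05 ± 0.19, FDR 0.0163). In U87mg, 5 falling divergent RNAs had a tested partner, 0 partners passed (edgeR) and their median was 0.20. A partner that misses the threshold is not shown to be unchanged.

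**Figure D5:**
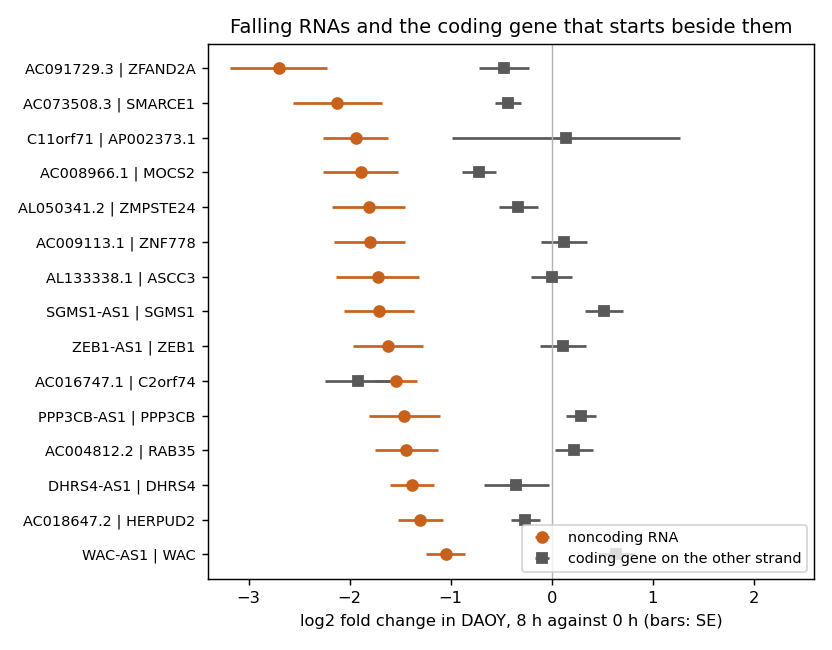
Log2 fold change at 8 h in DAOY (x axis, SE bars) of the 15 divergent RNAs that fell (orange circles) and of the coding gene that starts beside each on the other strand (grey squares). The RNAs lie between −2.70 and −1.05, and apart from C2orf74 at −1.92 the coding genes lie between −0.72 and 0.64.

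The promoters of the RNAs that fell were rich in GC, as the sequences at the opening show. Of the 1599 genes, 512 had a RefSeq start within 500 bases of the measured start. The 19 that fell in DAOY had a median GC content of 68.0% with 27 CpG in 300 bases, the 512 had 62.0% with 21, and the 5 that rose had 60.7% with 3. Divergent RNAs as a class had 67.7% with 29 CpG (n = 223). The letters of 5 motifs were searched on both strands. The AP-1 motif TGANTCA was present in 1 of the 19 and 0 of the 5, beside 9.8% of the 512 and 7.8% of all RefSeq promoters. The cAMP response element (TGACGTCA, 2.0% of all promoters) and the E-box (CACGTG, 7.4%) were in 0 of the 19 and 0 of the 5, and the TEAD motif (GGAATG, 14%) and the TATA box (TATAAA, 12%) were each in 1 of the 19 and 1 of the 5. No motif holds another whole, while the cAMP element and the E-box share the letters ACGT. A missing motif says only that its letters are not in these windows.

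In the lists of known RNAs, few passed at 8 h. Of 40 cancer-associated RNAs tested in DAOY, 1 (LINC-PINT) rose and 0 fell, with a median of 0.30 beside −0.01 over all genes. At an unadjusted p under 0.05 there were 16, beside 22.6% of all genes in DAOY and 15.8% in U87mg, shares that apply to the lists that follow too. MEG3 had 12.9, 27.8 and 14.0 CPM at 0 h and 27.6, 52.3 and 69.3 CPM at 8 h (1.46 ± 0.47, FDR 0.0999), and the lowest 8 h sample lay below the highest control. CYTOR had 0.79 ± 0.24 (FDR 0.0801), and HOTAIRM1, of the HOXA cluster, 0.81 ± 0.19 (FDR 0.0371), which is under 2-fold. In U87mg, 0 of 36 passed by edgeR, 5 had an unadjusted p under 0.05, and NORAD had 784, 597 and 637 CPM at 0 h and 475, 462 and 434 CPM at 8 h (−0.52 ± 0.12, FDR 0.0561), without overlap.

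Of the 10 microRNA host genes on the list that were tested in DAOY, 0 passed by edgeR and 4 had an unadjusted p under 0.05, with a median of 0.34. AC020916.1 (MIR23AHG), which passed in DAOY as given above, was not on this list. MIR4435-2HG, a near copy of the CYTOR gene whose reads may be shared with it, had 34.98, 29.8 and 28.7 CPM at 0 h and 56.3, 46.4 and 45.4 CPM at 8 h (0.69 ± 0.16, FDR 0.0309), under 2-fold and without overlap. MIR3142HG, which also hosts miR-146a, had 64.9, 15.1 and 10.3 CPM at 0 h and 96.2, 87.9 and 75.6 CPM at 8 h (1.57 ± 0.59, FDR 0.144), with 1 control far above the other 2. Of 20 RNAs antisense to developmental transcription factor genes in DAOY, 0 rose and 1, ZEB1-AS1, fell, with a median of 0.32. Of 14 p53, stress and hypoxia RNAs, LINC-PINT rose and 0 fell, with a median of 0.32. Of 14 RNAs beside growth factor, ERK and adhesion genes, 0 passed by edgeR and 3 had an unadjusted p under 0.05, with a median of −0.17. Among them MAGI2-AS3, beside the scaffold protein gene MAGI2, had 46.5, 35.6 and 34.9 CPM at 0 h and 20.4, 21.9 and 21.2 CPM at 8 h (−0.86 ± 0.16, FDR 0.0199). MAGI2 itself had −1.5 in DAOY at 8 h (FDR 0.0509 by edgeR), which misses the threshold.
In U87mg, 0 RNAs of these 4 lists passed at 8 h by edgeR, with medians of −0.10, −0.21, −0.11 and −0.45 in the order host genes, developmental, p53 and growth factor lists. At an unadjusted p under 0.05 there were 1, 1, 3 and 2.

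The change at 8 h was also compared between the lines. Of 1482 RNAs tested for a difference of the 8 h changes, 0 passed by edgeR, beside 0.012% of all 16664 genes. An unadjusted p under 0.05 was seen for 138 (9.31%, beside 8.74%), and DESeq2 called 2, beside 54 of all genes. Among the 5 with the smallest p were LINC-PINT, RALY-AS1, MIR4435-2HG and AC079466.1, with an FDR between 0.0998 and 0.204. RALY-AS1, divergent from the splicing factor gene RALY, had 0.45, 0.62 and 0.91 CPM at 0 h and 0.09, 0 and 0.10 CPM at 8 h in DAOY, while in U87mg it had 1.61, 2.22 and 1.52 CPM and 1.87, 2.09 and 1.90 CPM. That an RNA passed in DAOY and not in U87mg is therefore not shown to be a difference between the lines.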

How the data were processed

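The authors assigned single-end reads to GENCODE 24 transcripts with kallisto 0.43.0 and deposited, per transcript and sample, an estimated count and a TPM value, beside results of their sleuth 0.28.1 comparisons (p-values, q-values and fold changes), which were not used. The strand option is not given in the sources used here. The 3 samples kept per condition were chosen by the authors on quality from 4 replicates, or 3 for DAOY at 8 h. The authors call them biological replicates.

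Estimated counts were summed per gene by GENCODE 29 (GRCh38) identifier and deposited name together, because GENCODE 29 merges some noncoding transcripts into coding genes. This departs from the planned join by identifier alone, which was kept as an alternative chosen after the data were seen. Of the 2114 transcripts, 2098 were matched. Sums were rounded and tested with edgeR 4.0.16 (filterByExpr, TMM, glmQLFit and glmQLFTest, R 4.3.3), each line's 9 samples in one fit, with all 18 for comparisons between the lines. FDR is over all genes tested, and a call needed FDR under 0.05 and a log2 change of 1 or more in size. Levels are CPM scaled by TMM, or TPM between genes. A floor is 3 counts per library. The steps were tested on simulated data. For transcripts the simulated spread between samples was much smaller than that fitted here, so it does not show what the transcript test could detect.

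Named were the 10 RNAs highest in TPM in each line, up to 8 called RNAs per direction by fold and 5 by p in each comparison, the 5 with the smallest p where none was called, and members of 5 lists that were called or highest. Of the list members chosen in this way only some are described, and 1 RNA is not reported here. The RNAs, lists and tests were chosen with earlier results of these data known. Alternatives used DESeq2 1.42.0 and limma 3.58.1. Tables and plots were made in Python 3.11.15 (pandas 2.3.3, matplotlib 3.10.9, with numpy 2.4.6) and exact tests in scipy 1.17.1.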

Additional observations from a re-analysis of the deposited data

Results flagged for a closer look

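FOXD1-AS1, wholly opposite FOXD1 exons, was noted because every 8 h sample lay below the controls in U87mg and above them in DAOY. In U87mg it had 29.5, 20.3 and 26.7 CPM at 0 h and 20.2, 17.6 and 16.7 CPM at 8 h. In DAOY it had 8.57, 11.6 and 9.26 CPM at 0 h and 11.7, 16.5 and 12.9 CPM at 8 h. The changes differed by 0.95 on the log2 scale between the lines (FDR 0.274 by edgeR), so a difference is not shown. HAGLR, of the HOXD cluster, was noted for the same reason. It had 14.1, 12.4 and 14.5 CPM at 0 h and 11.5, 11.6 and 11.4 CPM at 8 h in U87mg. In DAOY it had 52.9, 52.1 and 55.5 CPM at 0 h and 70.5, 64.5 and 72.1 CPM at 8 h. Its changes differed by 0.61 (FDR 0.278). Groups of 3 samples were not searched for outlying samples.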

How the results depend on the processing

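All 51 RNAs called in DAOY and all 11 called in U87mg at 8 h kept their direction under every alternative that could test them. Apart from the fits with a sample left out, 12 of the 51 and 0 of the 11 passed in each such alternative. These alternatives include the fit of only the samples compared, which by itself called 0 RNAs in U87mg. The count in DAOY at 8 h, 51, was 104 with all 18 samples in one fit, 91 without a filter, 15 with only the samples compared and between 0 and 40 with a sample left out. Over all genes the main count was 471, and these fits gave 739, 897, 179 and between 31 and 393. The count in U87mg at 8 h, 11, was 18 by DESeq2, 1 by limma on log2(TPM + 1), 38 without a filter, 0 with only the samples compared and between 0 and 14 with a sample left out. Over all genes it was 87, and these fits gave 126, 6, 257, 0 and between 0 and 135. Without a filter 14 RNAs passed at 2 h in U87mg, 12 at 2 h in DAOY and 12 in the difference of the 8 h changes, where DESeq2 called 2, and leaving out a sample gave 0 to 8, 0 and 0 to 1. Between the lines at 0 h, 118 passed when every sample had to hold 10 counts, beside 3278 of all genes. With a sample left out 632 to 662 passed, beside 6701 to 7116 of all genes. For transcripts, DESeq2 called 4 and 13 in U87mg at 2 h and 8 h, beside 235 and 342 of all transcripts. In DAOY it called 1 and 59, beside 176 and 1225. Under that minimum of 10 counts, 10 passed in DAOY at 8 h, beside 207 of all transcripts. With the replicate number as a block, 31 RNAs passed at 8 h in DAOY, 6 in U87mg and 682 between the lines. Of all genes 314, 53 and 6870 did. Same-numbered samples of a line correlated at −0.18 to 0.39 in their deviations (18 pairs, median 0.06), and they were not treated as pairs. Differently numbered samples were not set beside them, so a pairing is not excluded. The cause of these shifts was not tested. RNAs of a few counts per library are beyond the depth. Joining by identifier alone, chosen after seeing the data, gave 52 and 11 calls at 8 h in DAOY and U87mg, beside 479 and 86 of all genes.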
